A study of Mus musculus with 6 samples.

Results

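The proteasome subunit genes are the genes for the core particle (Psma and Psmb symbols) and the regulatory particle (Psmc and Psmd symbols) of the proteasome. They were chosen by symbol: any probe set annotated to exactly 1 symbol made of Psma, Psmb, Psmc or Psmd and a number, with the immunoproteasome genes Psmb8, Psmb9 and Psmb10 left out. This gave 36 genes of 18193 measured in all, 16 of the core and 20 of the regulatory particle, read by 74 probe sets. The brightest probe set by its mean over the 6 arrays stood for each gene. The arrays hold LKS+ cells, marrow cells without mature-lineage markers and with high c-Kit and Sca-1, from 3 Apcmin and 3 wild-type (WT) mice. In the Apcmin genotype, 1 copy of Apc in every tissue bears the Min mutation, which cuts the protein short; Apc is a scaffold of the complex that marks beta-catenin for degradation. Neither age nor sex nor strain of the mice is given in the sources used. Per the labels, at least 20000 cells per mouse were sorted at a purity above 90%, and their RNA was amplified linearly before hybridization to Affymetrix mouse genome arrays. Each array was read as a separate mouse, but animals are not named in the labels, so p-values measure the spread between these arrays.

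The proteasome is the main protease for ubiquitin-tagged proteins in the cytosol and nucleus. Its core is a barrel of stacked rings: outer alpha rings gate the entrance, and inner beta rings hold the cutting sites. The regulatory particle binds ubiquitin, removes the tag, unfolds the protein with a ring of ATPases and feeds it into the core. Beta-catenin, once phosphorylated and ubiquitinated, is one of its substrates, and subunit genes in mammalian cells are induced together when proteasome activity is blocked, through the transcription factor Nfe2l1.

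The sorted identity was checked on 9 measured markers of immature cells, Kit, Cd34 and Gata2 among them, all with a mean of 6 or more (log2 intensity). Their means ran from 6.02 for Slamf1 to 10.94 for Cd34. Of 17 measured markers of mature blood cells, 8 reached that level: Ngp, Camp, Ltf, S100a8 and S100a9 of granulocytes, Csf1r of monocytes, Cd79b of B cells and Nkg7 of cytotoxic cells. The other 9 did not, and Cd3d and Cd3e of T cells, Ms4a1 of B cells and Itgam of myeloid cells stayed below a log2 intensity of 4 on every array. The summed intensity of the 17 ran between 10023 and 10587 on the Apcmin arrays and between 9641 and 12881 on the WT arrays, and WT replicate 2 stood highest. Of the 17, 4 were higher and 13 lower in Apcmin, and of the 9 immature markers 7 were higher and 2 lower, where 43% of all genes were higher. In limma 0 of the 17 passed at an adjusted p under 0.05, and 2 had an unadjusted p under 0.05, where 3.11% of all genes did: Cd3d, at -0.72 (log2, Apcmin minus WT), and Nkg7, at -0.34, whose groups did not overlap. Median log2 intensity per array ran between 4.12 and 4.18, and correlations between arrays ran between 0.974 and 0.989. In sorted cells measured in bulk, fewer cells of a type and less RNA per cell cannot be told apart.

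Proteasome subunit mRNA differed little between Apcmin and WT LKS+ cells. All differences below are log2 differences, Apcmin minus WT. Across the 36 genes they ran between -0.33 for Psma8 and 0.23 for Psmd3, with 34 of 36 smaller than 0.25 in size. So were 71.2% of all genes and 97.1% of the genes with a mean of 9 or more (log2 intensity). The median size of a difference was 0.059 over the subunit genes, 0.146 over all genes and 0.071 over the 2753 genes with a mean of 9 or more (log2 intensity). In limma, 0 of 36 subunit genes had an adjusted p under 0.05, as did 0 of 45037 probe sets (background 0%), and the smallest adjusted p of any probe set was 0.954. At an unadjusted p under 0.05 there were also 0 subunit genes in this fit, beside 566 of all genes (3.11%). Among the 2753 genes with a mean of 9 or more (log2 intensity), a level that 27 of the 36 subunit genes reached, only 5 did. A count of 0 therefore does not set the subunit genes apart from other bright genes.

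**Figure D1:**
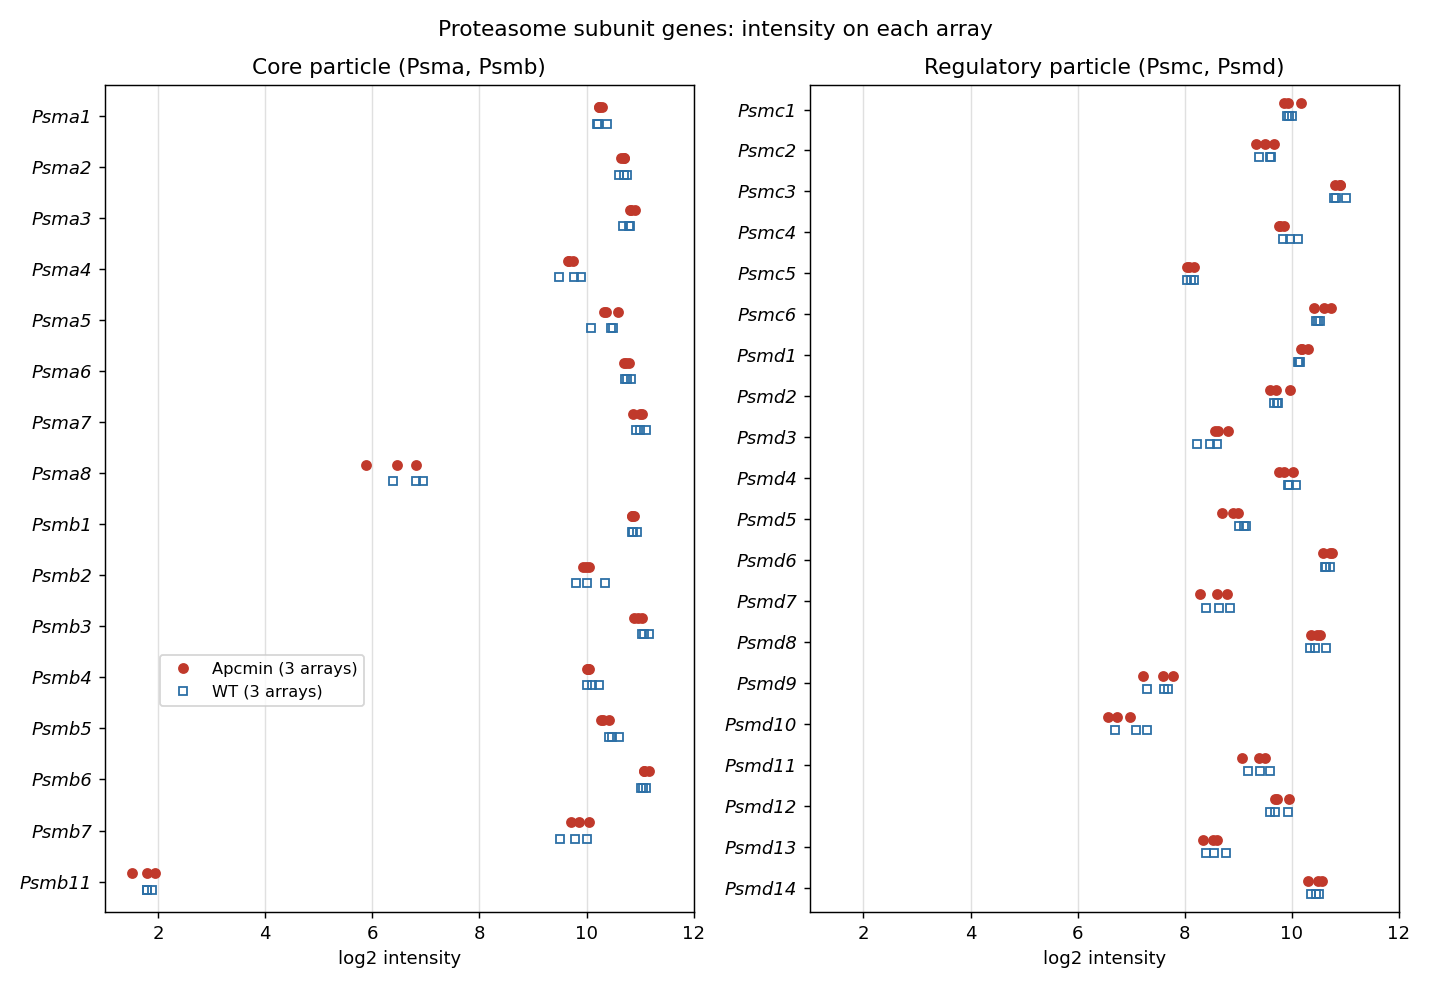
Log2 intensity (horizontal axis) of each of the 36 proteasome subunit genes on each array, core particle left and regulatory particle right, with 3 Apcmin arrays as filled circles above 3 WT arrays as open squares. The genotypes lie over each other for most genes; Psmb11 sits near the bottom of the scale, with a mean of 1.79.

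For the probe set that stands for each gene, the intervals bound the change these arrays leave room for, under a variance model without a mean-variance trend. Their widths rest on that model: Psmb1 had an SE of 0.13 beside a within-genotype SD of 0.040. With a mean-variance trend, the unadjusted limma p of Psmb5 fell from 0.257 to 0.068 and that of Psmd5 from 0.164 to 0.084. That of Psmd10 rose from 0.230 to 0.236. Each of the 36 95% confidence intervals included 0, and each lay within a 2-fold change in either direction. Of the 2753 genes with a mean of 9 or more (log2 intensity), 2745 lay within 2-fold, as did 15233 of all 18193 genes. In 33 of 36 subunit genes the interval also lay within a 1.5-fold change, beside 7860 of all 18193 genes. At a mean of 9 or more, it did in 27 of 27 subunit genes and in 2448 of 2753 genes. The exceptions among the 36 were Psma8, Psmd3 and Psmd10, and the widest interval, that of Psma8, ran from -0.98 to 0.33. Other probe sets of a gene are not covered by these bounds. A further Psmc6 probe set, at a mean of 7.49, differed by 0.42 with an SE of 0.34.

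**Figure D2:**
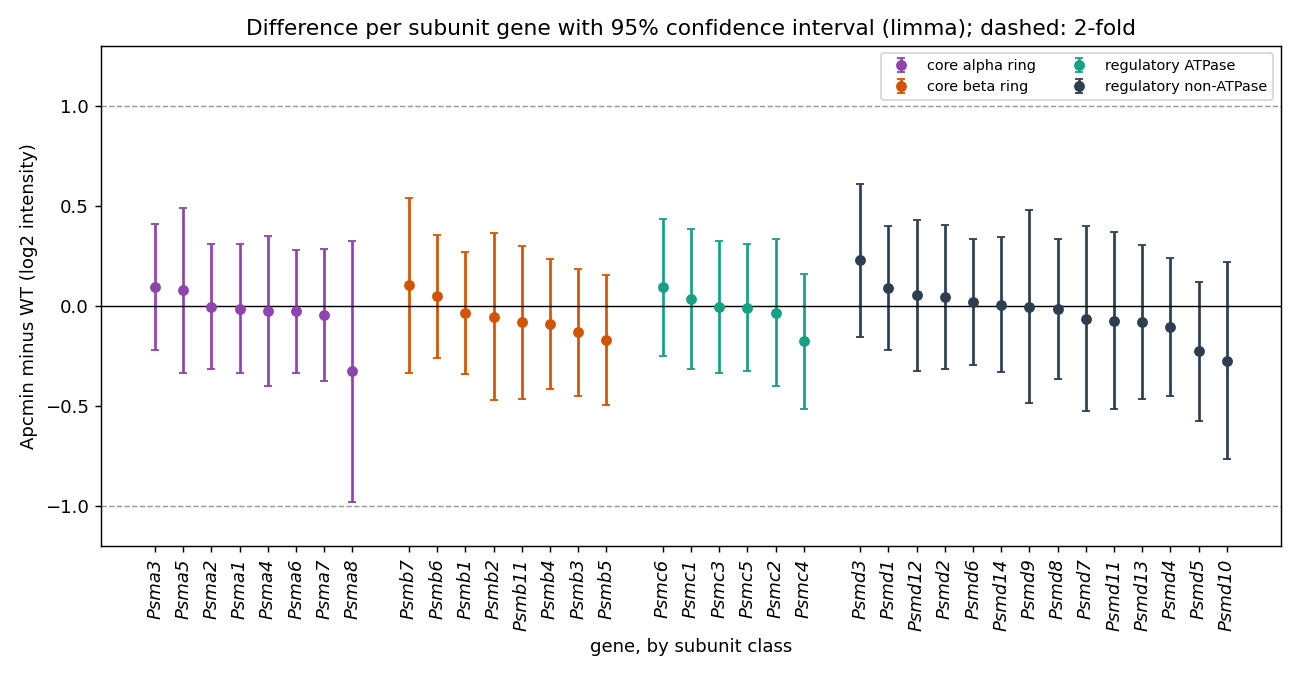
Apcmin minus WT difference in log2 intensity (vertical axis) for each gene, sorted within 4 subunit classes, with the limma 95% confidence interval as bars and 2-fold marked by dashed lines. Only the brightest probe set of each gene is shown. Every interval crosses 0 and none reaches a 2-fold change.

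More subunit genes had a lower than a higher mean in Apcmin: 24 were lower and 12 higher. The share that was higher, 33.3%, stood beside 43% of all genes and 56.3% of the 8658 genes with a mean of 6 or more (log2 intensity), a level that 35 of the 36 subunit genes reached. The median difference was -0.021 over the subunit genes, -0.036 over all genes and 0.023 over those brighter genes. Psma8, Psmb11, Psmd5, Psmd9 and Psmd10, described below, were all lower. Without them 12 were higher and 19 lower (38.7% higher), with a median difference of -0.013. Single arrays moved the count over all 36 genes. Without WT replicate 2, which held the highest of the 6 values in 13 of the 36 genes, 19 subunit genes were higher in Apcmin, and without Apcmin replicate 3, highest in 9 genes, 8 were. WT replicate 2 was also the array with the highest mature blood markers, 0.37 above their mean as a median, and the part of this in the count was not tested.

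Core and regulatory genes differed from each other by less than the spread between single arrays of 1 genotype. The median difference was -0.032 over the 16 core genes, with 4 higher and 12 lower, and -0.0064 over the 20 regulatory genes, with 8 higher and 12 lower. The contrast of the particles, core minus regulatory, was -0.025. The SD of the same contrast between arrays of 1 genotype was 0.061, larger than that value. Without Apcmin replicate 3 the contrast was 0.013, and without Apcmin replicate 2 it was -0.067.

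The median deviation of core genes from their 6-array means was -0.043, -0.0010 and 0.0073 on Apcmin replicates 1 to 3, and -0.030, 0.010 and 0.045 on WT replicates 1 to 3. That of regulatory genes was -0.023, -0.064 and 0.070 on the Apcmin arrays and -0.036, 0.063 and -0.016 on the WT arrays. The groups overlap in both particles. Regulatory genes were highest on Apcmin replicate 3 and WT replicate 2, 1 array of each genotype, and core genes were highest on WT replicate 3.

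**Figure D3:**
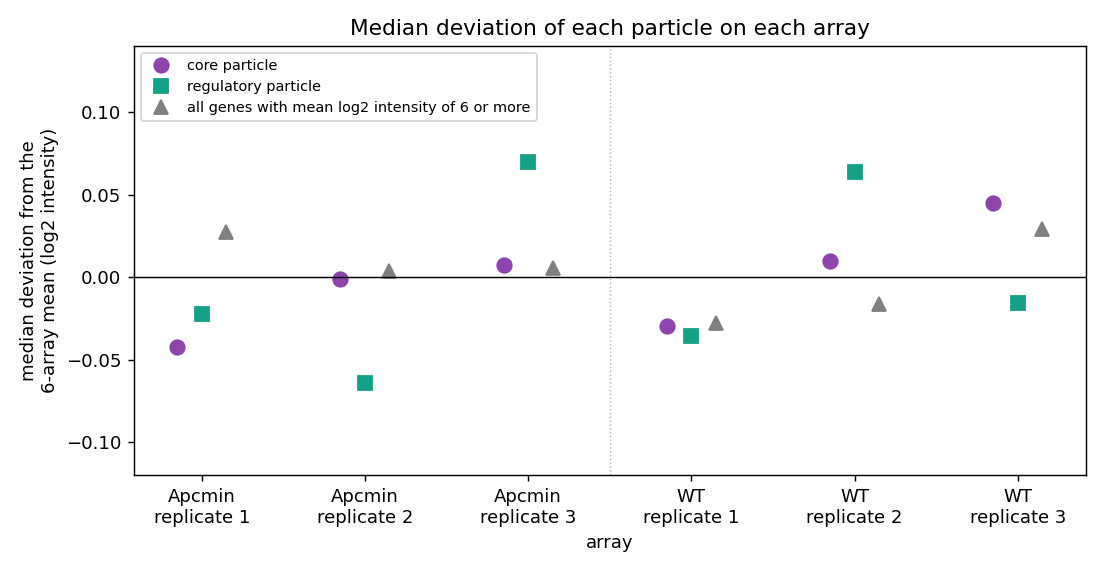
Median deviation from the 6-array mean in log2 intensity (vertical axis) on each array, Apcmin left of WT, for core genes, regulatory genes and all genes with a mean of 6 or more (log2 intensity). All points lie between -0.064 and 0.070, and the genotypes overlap.

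Within the core, the alpha ring genes code for the gate and the outer scaffold. Of 8 alpha genes 2 were higher in Apcmin and 6 lower, and their median difference was -0.019. Psma3, an alpha subunit, was at 10.81, 10.83 and 10.90 on the Apcmin arrays and at 10.67, 10.81 and 10.79 on the WT arrays. The Apcmin values lay above the WT values, but by a gap of only 0.0079. The difference of 0.095 came with an SE of 0.13 (limma, adjusted p = 0.956), it was 0.053 without WT replicate 1, and a dimmer Psma3 probe set gave -0.10.

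Psma8 is the alpha subunit that takes the place of Psma7 in the proteasome of mouse male germ cells. It was at 6.46, 5.89 and 6.82 on the Apcmin arrays and at 6.39, 6.94 and 6.82 on the WT arrays. The groups overlap, and Apcmin replicate 2 was lowest. Its difference, -0.33 (SE 0.27; limma, adjusted p = 0.954), was the largest in size among the subunit genes, and it was -0.076 without Apcmin replicate 2, -0.22 without WT replicate 2 and -0.54 without Apcmin replicate 3. Psma8 also had the largest within-genotype SD of the brighter members, 0.39. The other alpha genes, Psma1, Psma2, Psma4, Psma5, Psma6 and Psma7, had mean levels between 9.71 and 10.99 and differences between -0.046 and 0.078.

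The beta ring genes include the catalytic subunits. Of 8 beta genes 2 were higher and 6 lower, with a median difference of -0.068. Psmb5, the chymotrypsin-like subunit and the main target of the drug bortezomib, was at 10.30, 10.42 and 10.28 on the Apcmin arrays and at 10.60, 10.43 and 10.48 on the WT arrays. All Apcmin values lay below the WT values, with a gap of 0.0061 between the nearest arrays. The difference was -0.17 with a standard error of 0.14, a ratio of 0.890 (limma, adjusted p = 0.954).

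Psmb6, the caspase-like subunit, was at 11.08, 11.08 and 11.16 on the Apcmin arrays and at 11.01, 11.05 and 11.11 on the WT arrays, a difference of 0.048 that was 0.020 without Apcmin replicate 3. Psmb7, the trypsin-like subunit, was at 10.05, 9.70 and 9.85 on the Apcmin arrays and at 9.79, 9.51 and 10.002 on the WT arrays, a difference of 0.10 that ran between -0.026 without WT replicate 2 and 0.22 without WT replicate 3. Both genes overlap between genotypes (limma, adjusted p = 0.975 for Psmb6 and 0.964 for Psmb7). The 3 catalytic genes did not share 1 direction.

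Psmb3, a beta subunit without a cutting site of its own, was at 10.88, 11.03 and 10.96 on the Apcmin arrays and at 11.08, 11.16 and 11.03 on the WT arrays. The groups parted by 0.0017 only, with a difference of -0.13 (limma, adjusted p = 0.954), and its other bright probe set differed by -0.19. Psmb1, a further noncatalytic beta subunit, was the steadiest of the brighter members, with a within-genotype SD of 0.040. It was at 10.84, 10.88 and 10.84 on the Apcmin arrays and at 10.85, 10.95 and 10.87 on the WT arrays. Its groups overlap, and its difference of -0.036 (limma, adjusted p = 0.980) became 0.081 when all Psmb1 probe sets were averaged. Psmb2 and Psmb4 differed by -0.054 and -0.091. Psmb11, the beta subunit of the thymus cortex, lay near the bottom of the range, with a mean of 1.75 on Apcmin arrays and 1.83 on WT arrays.

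The 6 ATPase genes of the regulatory particle, Psmc1 to Psmc6, differed by between -0.18 and 0.092, with 2 higher and 4 lower and a median of -0.0064. Their groups overlap in all 6. Psmc4 had the lowest value, -0.18 on its brighter probe set, while its other bright probe set gave 0.14. The 3 Psmc6 probe sets all gave positive differences, of 0.09, 0.42 and 0.55 in order of falling brightness. The 2 dimmer ones were lowest on WT replicate 2, at 6.61 and 2.58.

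The 14 non-ATPase genes gave the remaining differences, with 6 higher and 8 lower and a median of -0.0093. Psmd3, a structural subunit of the lid, was at 8.81, 8.56 and 8.62 on the Apcmin arrays and at 8.47, 8.24 and 8.60 on the WT arrays. WT replicate 3 reached above an Apcmin value, so the groups overlap. The difference of 0.23 came with an SE of 0.16 (limma, adjusted p = 0.954), and it was 0.13 without WT replicate 2. Psmd1, a large scaffold subunit of the base, was at 10.30, 10.19 and 10.18 on the Apcmin arrays and at 10.13, 10.15 and 10.12 on the WT arrays. Its groups did not overlap, and its difference was 0.089 (SE 0.13; limma, adjusted p = 0.958), or 0.050 without Apcmin replicate 1.

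Psmd5, Psmd9 and Psmd10 carry Psmd names but code for chaperones that help assemble the base and leave before the proteasome is complete. Psmd5 was at 8.99, 8.69 and 8.90 on the Apcmin arrays and at 9.10, 9.15 and 9.02 on the WT arrays. All Apcmin values lay below the WT values, by a gap of 0.031, the widest of the genes whose groups parted. The difference was -0.23 with a standard error of 0.15, a ratio of 0.854 (limma, unadjusted p = 0.164, adjusted p = 0.954), and it was -0.14 without Apcmin replicate 2. Psmd10, also called gankyrin, was at 6.98, 6.56 and 6.73 on the Apcmin arrays and at 6.70, 7.30 and 7.09 on the WT arrays. Its groups overlap, and the difference of -0.27 (limma, adjusted p = 0.954) was -0.14 with WT replicate 2 left out, -0.17 with Apcmin replicate 2 left out and -0.44 with WT replicate 1 left out. Psmd9 differed by -0.0028, and 1 of its dimmer probe sets gave 0.49, the only member probe set of the 74 with an unadjusted p under 0.05 in limma, beside 3.81% of all probe sets.

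The other non-ATPase genes were Psmd2, Psmd4, Psmd6, Psmd7, Psmd8, Psmd11, Psmd12, Psmd13 and Psmd14, with differences between -0.10 and 0.053. Psmd14, the subunit that cuts ubiquitin chains off substrates, differed by 0.0070, and Psmd4, a ubiquitin receptor, by -0.10, with both of its other probe sets also lower. Psmd11, a lid subunit, was read by 8 probe sets, of which 7 were lower in Apcmin. Its brightest probe set, at a mean of 9.36, differed by -0.074, and the 1 higher probe set, at 9.27, by 0.067. Of its 3 other probe sets with a mean of 6 or more (log2 intensity), 2 were lower.

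In all, 5 of 36 subunit genes had groups that did not overlap, where 7.73% of all genes did. Psma3 and Psmd1 were higher in Apcmin (2 of 36, beside 2.97% of all genes) and Psmb3, Psmb5 and Psmd5 lower (3 of 36, beside 4.76%). Among the genes with a mean of 6 or more (log2 intensity), 661 of 8658 did. The gaps were between 0.0017 and 0.031, smaller than the within-genotype SD of each of these genes, the smallest of which was 0.050.

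Most subunit genes varied less between arrays of 1 genotype than the median gene did. Their median within-genotype SD was 0.116, against 0.237 over all genes, and 33 of the 36 lay below the median gene. Bright probe sets vary less in general, so brighter genes were taken alone. The 18 subunit genes with a mean of 10 or more (log2 intensity) had a median SD of 0.079, against 0.106 over all 1174 genes at that level, and 14 of the 18 lay below that median. At 9 or more, the medians were 0.103 over 27 subunit genes and 0.122 over 2753 genes, and 19 of 27 lay below. Core genes had a median SD of 0.082 and regulatory genes 0.121, beside median intensities of their probe sets of 10.40 and 9.75. No test was made of these SDs.

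**Figure D4:**
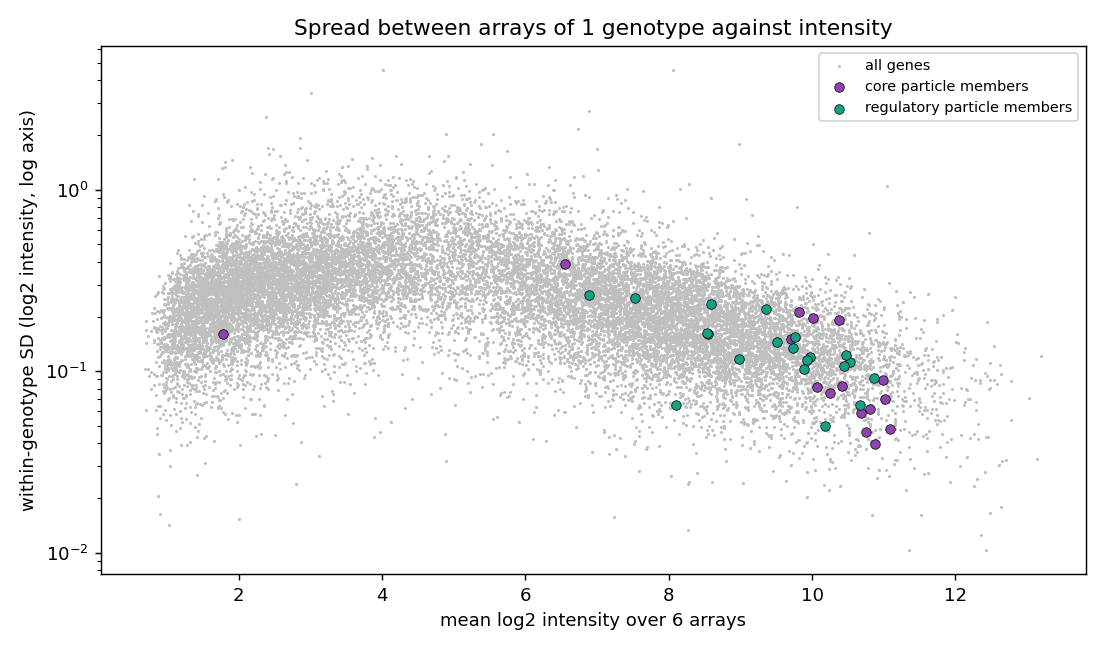
Within-genotype SD of log2 intensity (vertical log axis) against mean log2 intensity over the 6 arrays (horizontal axis) for all 18193 genes in grey, with core and regulatory members in colour. Spread falls with intensity for genes as a whole above about the middle of the axis, 33 of the 36 members lie below the median SD of all genes, and Psma8 is the highest member at an SD of 0.39.

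Different probe sets of 1 gene often disagreed on the sign of these small differences. Of 19 members with several probe sets, 6 had the same sign in all of them. Among 13 members with a further probe set at a mean of 6 or more (log2 intensity), 5 agreed in sign across those. Psma7 gave -0.05 and 0.07 on 2 probe sets whose means were 10.99 and 10.72.

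Genes that work with these subunits were read from lists of the proteasome pathway. Of 55 listed genes 45 had a probe set with exactly 1 symbol, and the others are not analysed here. By list, 0 of 3 immunoproteasome genes, 0 of 4 activator and inhibitor genes, 0 of 7 assembly factors, 0 of 4 ubiquitin receptor and deubiquitinase genes, 0 of 8 transcriptional regulators, 0 of 1 ubiquitin gene, 0 of 8 shuttle factors and 0 of 10 genes of beta-catenin destruction passed in limma, in either direction. None had an unadjusted p under 0.05. Over the 45 genes, 25 were higher and 20 lower, with a median difference of 0.011.

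The immunoproteasome genes replace the catalytic subunits in cells exposed to interferon and in many blood cells. All 3 were bright in LKS+ cells, with 6-array mean log2 intensities of 10.23 for Psmb8, 10.11 for Psmb9 and 10.08 for Psmb10. Psmb8, which replaces Psmb5, was at 10.12, 10.34 and 10.13 on the Apcmin arrays and at 10.21, 10.33 and 10.28 on the WT arrays, a difference of -0.072. Psmb9, the partner of Psmb6, was at 9.87, 10.27 and 10.01 on the Apcmin arrays and at 10.24, 10.15 and 10.13 on the WT arrays, a difference of -0.12. Psmb10, the partner of Psmb7, was at 9.88, 10.23 and 10.02 on the Apcmin arrays and at 9.93, 10.25 and 10.15 on the WT arrays, a difference of -0.068. The genotypes overlap in all 3 genes. Within an array, the log2 ratio of each to its constitutive partner differed by 0.096 for Psmb8 over Psmb5, -0.17 for Psmb9 over Psmb6 and -0.17 for Psmb10 over Psmb7, and the genotypes overlap in all 3 ratios.

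Among the regulators, Nfe2l1, the factor that raises subunit transcription when the proteasome is impaired, was at 9.12, 9.16 and 9.07 on the Apcmin arrays and at 9.23, 9.19 and 9.01 on the WT arrays. The difference was -0.023 (limma, adjusted p = 0.990). Nfe2l2, its relative in the response to oxidants, differed by 0.25 (8.96 ± 0.16 in Apcmin and 8.70 ± 0.29 in WT, SD, n = 3; limma, adjusted p = 0.954), the smallest p of that list, and by 0.090 without WT replicate 1. Zfand5, which stimulates the proteasome, was at 10.58, 10.57 and 10.50 on the Apcmin arrays and at 10.23, 10.42 and 10.49 on the WT arrays. It differed by 0.17, or 0.094 without WT replicate 1. Zfand5 was the only pathway gene of the 45 whose groups did not overlap, where 7.73% of all genes did not. The gap for Zfand5 was 0.0023. Of its 6 other probe sets 3 were higher and 3 lower. Psmf1, an inhibitor of the core, differed by -0.095, Psmg3, a chaperone of the alpha ring, by -0.16, and Usp14, a deubiquitinase bound to the proteasome, by 0.11. Uba6, a ubiquitin-activating enzyme, differed by -0.12, and Rbx1, the ring subunit of cullin ligases, by -0.41 at a dim level (3.93 ± 0.15 in Apcmin and 4.34 ± 0.48 in WT), or -0.14 without WT replicate 3. None of these passed (limma, adjusted p of 0.954 or more). Apc itself differed by 0.079 and Ctnnb1, the gene for beta-catenin, by 0.089.

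The sequences before RefSeq transcript starts of the subunit genes were read for 8 motifs of transcription factors. Whether each of these factors acts on proteasome promoters was not tested. RefSeq windows on GRCm38.p6 covered 29 of the 36 genes, 12 core and 17 regulatory, in 31 windows, and the 250 bases before each start were searched on both strands. In 8 of the 31 windows that start was not the outer end of the annotated gene, so some of the searched sequence lies within the gene. The genes without a window were Psma8, Psmb1, Psmb2, Psmb7, Psmc3, Psmd3 and Psmd7. The antioxidant response core TGACNNNGC, the site class of Nfe2l1, was present in 5 of 31 windows (16.1%), against 10.2% of all 32851 windows and 11.7% of the windows of genes at a mean of 9 or more (log2 intensity). The 5 genes were Psmb5, Psmb6, Psmc6, Psmd9 and Psmd12, and the Psmb6 match lay inside the annotated gene, which left 4 genes with a match outside it. Their differences ran between -0.17 and 0.092. For those 4, the windows below show the 60 bases around the match, read along the gene's strand, with the match in capitals, because this is the site class tied to joint control of the family. For Psmc6 and Psmd12 the match is on the opposite strand.
Psmb5 (chr14:54618008-54618067, minus strand, 47 to 39 bases before the start): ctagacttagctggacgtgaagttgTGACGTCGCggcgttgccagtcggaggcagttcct
Psmd9 (chr5:123228130-123228189, plus strand, 31 to 23 bases before the start): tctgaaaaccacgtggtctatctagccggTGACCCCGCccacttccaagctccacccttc
Psmc6 (chr14:45329574-45329633, plus strand, 227 to 219 bases before the start): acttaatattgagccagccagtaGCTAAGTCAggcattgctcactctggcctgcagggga
Psmd12 (chr11:107479278-107479337, plus strand, 247 to 239 bases before the start): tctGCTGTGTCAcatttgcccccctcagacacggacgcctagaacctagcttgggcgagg

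The core of Ets-family sites, CCGGAA, was present in 14 of 31 windows (45.2%), against 12% of all windows and 24.2% of the windows of genes at a mean of 9 or more (log2 intensity). By gene, it was in the windows of 11 of 17 regulatory genes (Psmc1, Psmc2, Psmc5, Psmc6, Psmd2, Psmd4, Psmd6, Psmd10, Psmd11, Psmd12 and Psmd13) and 2 of 12 core genes (Psma5 and Psma6). The Psma6 and Psmd2 matches and 1 of the Psmc2 matches lay inside the annotated gene, so 10 regulatory genes and 1 core gene had a match outside it. The 11 regulatory genes had differences between -0.27 and 0.092, with values on both sides of 0. Examples are given from both kinds of regulatory subunit, with the match in capitals. The Psmd4 site reads the same on both strands and holds overlapping matches, and the Psmc1 match is on the strand opposite to the gene.
Psmc1 (chr12:100110142-100110201, plus strand, 27 to 22 bases before the start): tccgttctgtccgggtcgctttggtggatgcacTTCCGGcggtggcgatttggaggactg
Psmc5 (chr11:106256063-106256122, plus strand, 95 to 90 bases before the start): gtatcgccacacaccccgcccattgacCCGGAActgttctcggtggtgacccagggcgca
Psmd4 (chr3:95042707-95042766, minus strand, 125 to 120 bases before the start): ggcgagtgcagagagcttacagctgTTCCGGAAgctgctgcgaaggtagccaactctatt
Psmd6 (chr14:14120958-14121017, minus strand, 45 to 40 bases before the start): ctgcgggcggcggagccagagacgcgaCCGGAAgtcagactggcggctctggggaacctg

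The other 6 of 8 patterns were counted in the same windows. CCAAT was in 12 of 31 windows (38.7%, against 33.8% of all windows), in 7 core and 5 regulatory genes. GCGGAAGT, a longer Ets site that does not contain CCGGAA, was in 3 of 31 windows and 1.34% of all. The Znf143 motif was in 1 window (0.685% of all), CGCATGCGC in 1 (1.45%), and TGACTCAGC (0.39%) and TGACGTCA (1.55%) in 0 of 31. In windows of genes at a mean of 9 or more (log2 intensity), CCAAT was in 36.2%, GCGGAAGT in 3.85% and the Znf143 motif in 2.21%. CGCATGCGC was in 3.88% of these, TGACTCAGC in 0.536% and TGACGTCA in 2.71%. The CGCATGCGC share of the subunit windows, 3.23%, was thus above that of all windows but below that of the brighter genes. A match describes these letters in these windows only.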

How the data were processed

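LKS+ cells of 3 Apcmin and 3 WT mice were measured on Affymetrix mouse genome arrays. The deposited table holds intensity values on a linear scale that the authors normalized with RMA, per the submitters' processing notes; its version is not given in the sources used here. They were turned into log2 values with no pseudocount. After 64 control probe sets of 45101 were left out, 45037 were fitted with limma 3.58.1 in R 4.3.3 (lmFit and eBayes, Apcmin minus WT), with Benjamini-Hochberg adjustment over all of them and a threshold of 0.05. Confidence intervals (95%) are limma's. Symbols came from the platform annotation (34945 probe sets with 1 symbol, 932 with several and 9160 with none), checked by Entrez ID against RefSeq, in which all 36 members matched. Class medians and SDs carry no test.

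The members and the lists were chosen with earlier results of these data known. Members are given with every array's value if they are catalytic, if their groups do not overlap, if they are among the 3 largest positive or 3 largest negative differences at a mean log2 intensity of at least 6, or if they have the largest or smallest within-genotype SD there. From each pathway list the gene with the smallest p is named, and the immunoproteasome genes and Nfe2l1 always. Psmc4, Psmc6, Psmd4, Psmd9, Psmd11 and Psma7 were named for their probe sets after their values were seen. Alternatives covered normalization, low values, a pseudocount of 16, the variance model, array weights, the replicate number as a block, the choice of probe set and each array left out. The number of arrays limits the precision.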

Additional observations from a re-analysis of the deposited data

How the results depend on the processing

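In limma, 0 probe sets and 0 members passed under every alternative run, and the smallest adjusted p of a named gene was 0.474. Unadjusted limma p-values moved with the settings. With a pseudocount of 16, that of Psmd5 fell from 0.164 to 0.049 and that of Psmb5 from 0.257 to 0.052, while that of Psma8 rose from 0.274 to 0.289. The count of 0 subunit genes at an unadjusted p under 0.05 thus holds for the main fit only. The count of members higher in Apcmin, 12, was between 8 and 19 with 1 array left out: 19 without WT replicate 2 and 8 without Apcmin replicate 3. With 1 array left out, the median difference ran between -0.056 and 0.0010 over all members, -0.051 and -0.010 over the core, and -0.057 and 0.035 over the regulatory particle, and core minus regulatory between -0.067 and 0.013. Of 347 values of the 22 named genes, 14 turned sign. These values include alternatives that cannot change a gene's difference: the variance model, the brightness filter and the replicate block. By gene, 13 of the 22 kept their sign under every alternative. Leaving out 1 array gave Psmf1 -0.28 to 0.0090, Psmb10 -0.16 to 0.016, Nfe2l1 -0.088 to 0.020, Uba6 -0.28 to 0.0042, Psmb7 -0.026 to 0.22 and Usp14 -0.095 to 0.22. Psmb8 ran between -0.14 and -0.033, Psmb9 between -0.23 and -0.033, and Psmg3 between -0.21 and -0.094. The mean of all probe sets gave Psma3 -0.0047, Psmb1 0.081, Psmf1 0.23, Uba6 0.31 and Zfand5 -0.065, and probe sets without a suffix for shared transcripts gave Psma3 -0.10 and Psmb1 0.14. The cause was not tested. With the replicate block 0 members passed. The block is balanced over the genotypes and leaves every difference as it was, so core minus regulatory (-0.025) and the 12 higher members could not change. Arrays of the same number had correlated deviations of 0.050, -0.054 and -0.25, so the numbers were not taken as pairs. Differences of probe sets near the bottom of the range, such as that of Psmb11, have little signal behind them.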
